A study of Mesocricetus auratus with 6 samples.

Results

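Fatty acid synthesis genes were followed in 3 tissues of wild-type and *duper* Syrian hamsters (*Mesocricetus auratus*). The genes were chosen by name: the enzymes *Acly*, *Acaca*, *Acacb*, *Fasn*, *Scd*, *Elovl6* and *Me1*, and the regulators *Srebf1*, *Mlxipl* and *Thrsp*. Of these 10 genes, 8 had a row in the gene tables, among 31593 genes in all. *Scd* and *Thrsp* were not row names. *Thrsp* was not analysed here, and for *Scd* the RefSeq loci LOC101834849 and LOC101835362, which carry the synonyms SCD1 and SCD2, are described beside the 8 genes and are not counted among them. *duper* hamsters carry a null mutation of *Cry1*, a repressor of the circadian clock, and descend from the super duper line after crosses that removed the *tau* mutation. Both genotypes were of the LVG ecotype, were raised in a 14:10 light-dark cycle with free access to food and water, and were sampled at CT15, in the subjective night.

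RNA was taken from cortex, suprachiasmatic nucleus (SCN, the hypothalamic clock) and liver of 4 hamsters per genotype. For cortex and for SCN the RNA of the 4 hamsters was mixed into 1 library per genotype. For liver a library was made from each of the 4 hamsters, and the values of the 4 appear as 1 merged set per genotype. Each tissue therefore gave 1 set of values per genotype, 6 in all, and the 3 sets of a genotype came from the same animals. p-values below measure the spread between these sets only. All *duper* hamsters were female and the wild-type hamsters were of both sexes, so genotype and sex cannot be told apart. Only CT15 was sampled, so a change of level and a shift in the timing of a rhythm cannot be told apart either. The paper reports an earlier phase of PER3 protein in *duper* liver and lists the sampling time as a limit of its RNA data.

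De novo fatty acid synthesis turns surplus carbohydrate into fat. Citrate exported from mitochondria is split to acetyl-CoA, acetyl-CoA is carboxylated to malonyl-CoA, and fatty acid synthase joins these units into palmitate with electrons from NADPH, after which the chain can be lengthened and given a double bond. Liver is a main site of this pathway, where SREBP-1c carries the insulin signal and ChREBP the glucose signal to its genes, while in brain it supplies lipid for membranes and myelin.

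Total estimated counts ranged from 6788947 in wild-type cortex to 85748562 in *duper* liver. *Cry1* stood at 16.8 to 33.3 TPM (transcript abundance scaled for length and library depth) in wild-type tissues and at 5.44 to 8.56 TPM in *duper* tissues, lower in each of the 3 tissues. The tissue labels held against defining markers: 8 hepatocyte markers summed to 133377 and 144419 TPM in liver and to at most 137 TPM in brain, 6 neuron markers summed to at most 1.49 TPM in liver, and the 3 SCN markers with a row (*Nms*, *Six6* and *Lhx1*) summed to 50.1 TPM in wild-type SCN and 24.4 TPM in *duper* SCN against at most 0.59 TPM in cortex. In bulk tissue, fewer cells of a type and less RNA per cell cannot be told apart.

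The pathway was expressed in all 3 tissues, with a different make-up in liver and brain. In the brain *Acly* had the highest level of the 8 genes and *Acacb* and *Mlxipl* the lowest, while in both livers *Fasn* led. *Acly* was the lowest of the 8 in *duper* liver. The 8 genes together reached 328 to 409 TPM in the 4 brain libraries, 665 TPM in wild-type liver and 492 TPM in *duper* liver. *Fasn* made up 19.4% to 22.2% of that sum in brain and 31.6% and 35.2% in liver.

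**Figure D1:**
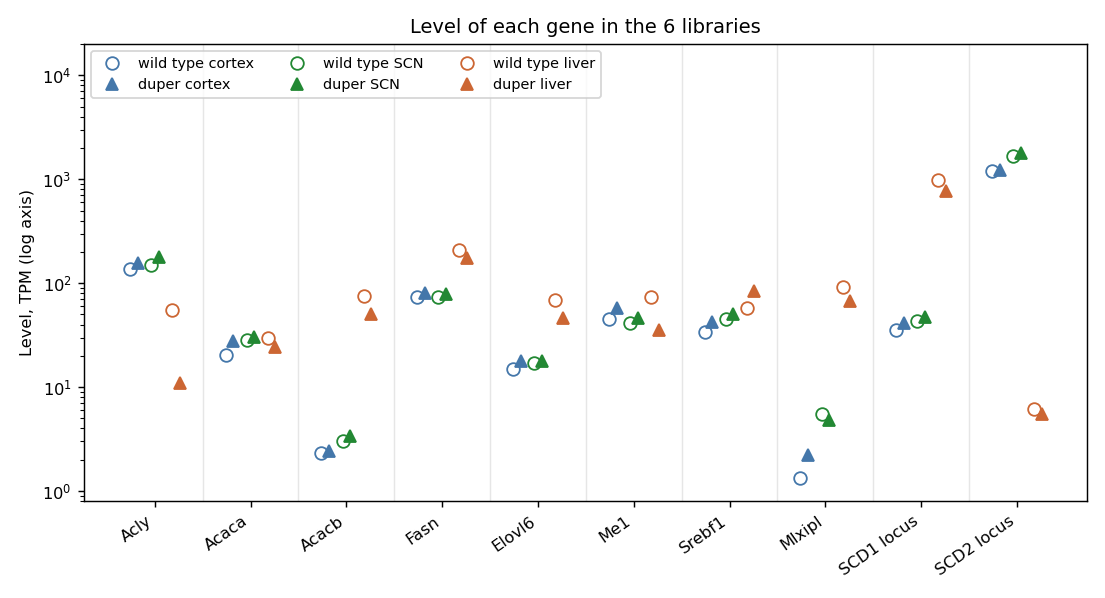
Level in TPM (log axis) of the 8 fatty acid synthesis genes and the SCD1 and SCD2 loci in each of the 6 libraries; open circles are wild type, filled triangles *duper*, and colour gives the tissue. *Acly* stood at 55.7 TPM in wild-type liver and 11.1 TPM in *duper* liver, both below all 4 brain libraries, and the SCD1 and SCD2 loci exchanged places between liver and brain.

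*Acly* encodes ATP citrate lyase, which makes cytosolic acetyl-CoA from citrate. Its level was 137 TPM in wild-type cortex, 155 TPM in *duper* cortex, 151 TPM in wild-type SCN, 177 TPM in *duper* SCN, 55.7 TPM in wild-type liver and 11.1 TPM in *duper* liver. Both liver values lay below all brain values, and as a ratio the 2 livers differed more than any 2 brain libraries did.

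Acetyl-CoA carboxylase 1, encoded by *Acaca*, makes the malonyl-CoA used for synthesis in the cytosol. *Acaca* stood at 20.3 and 27.5 TPM in wild-type and *duper* cortex, in SCN 28.6 and 30.5 TPM, and in the livers 29.5 and 24.5 TPM. On the TPM scale the tissues overlapped. *Acacb* encodes acetyl-CoA carboxylase 2, the mitochondrial form whose product restrains fatty acid oxidation. Its level was 2.35 and 2.42 TPM in cortex, in SCN 3.01 and 3.42 TPM, and in the livers 75.9 and 50.0 TPM, so the tissues did not overlap.

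*Fasn*, the fatty acid synthase itself, was nearly level across the brain at 72.9 TPM in wild-type cortex, 80.0 TPM in *duper* cortex, 73.6 TPM in wild-type SCN and 79.4 TPM in *duper* SCN. In liver it reached 210 TPM (wild type) and 173 TPM (*duper*), above every brain library. *Elovl6* lengthens palmitate toward stearate. Its level was 15.1 and 17.9 TPM in wild-type and *duper* cortex, in SCN 17.2 and 17.9 TPM, and in the livers 69.5 and 46.0 TPM, again with no overlap between liver and brain.

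*Me1*, cytosolic malic enzyme, supplies NADPH to the synthase. It was measured at 44.8 and 58.2 TPM in wild-type and *duper* cortex, in SCN 41.0 and 45.7 TPM, and in the livers 74.1 and 35.7 TPM. The wild-type liver was above, and the *duper* liver below, all 4 brain libraries.

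Stearoyl-CoA desaturases place the first double bond. The SCD1 locus stood at 35.7 and 41.0 TPM in wild-type and *duper* cortex, in SCN 43.1 and 47.2 TPM, and in the livers 985 and 773 TPM. At the SCD2 locus the order was turned, with 1211 and 1233 TPM in cortex, in SCN 1668 and 1801 TPM, and in the livers 6.17 and 5.50 TPM. SCD1 made up 99.4% and 99.3% of the pair's summed TPM in liver and 2.52% to 3.22% in brain. Each locus has 1 annotated transcript, of 1077 and 1080 bases, both multiples of 3, which limits a comparison of their TPM with that of genes annotated with untranslated regions.

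The regulators differed in how far they were shared between tissues. *Srebf1* encodes SREBP-1, the sterol regulatory element binding protein that drives lipogenic genes. Its level was 34.0 and 42.6 TPM in wild-type and *duper* cortex, in SCN 45.3 and 50.2 TPM, and in the livers 57.8 and 83.2 TPM, and liver lay above brain in each genotype. *Mlxipl* encodes ChREBP, the carbohydrate-responsive partner of MLX. It was low in cortex, at 1.34 TPM in the wild-type library (14 estimated counts) and 2.24 TPM in the *duper* library (36 estimated counts). In SCN it stood at 5.47 and 4.87 TPM, and in liver at 92.6 and 68.0 TPM.

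Ranked by mean TPM of the 2 genotypes, cortex ran *Acly*, *Fasn*, *Me1*, *Srebf1*, *Acaca*, *Elovl6*, *Acacb* and *Mlxipl*, with no neighbours overlapping. In SCN the order was *Acly*, *Fasn*, *Srebf1*, *Me1*, *Acaca*, *Elovl6*, *Mlxipl* and *Acacb*, and *Srebf1* and *Me1* overlapped. In liver *Fasn* was first and overlapped with no other gene, and each later neighbour in the order *Mlxipl*, *Srebf1*, *Acacb*, *Elovl6*, *Me1*, *Acly* and *Acaca* overlapped with the next. With 2 values per tissue, overlap is a description of spread and not a test.

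Liver was compared with the mean of cortex and SCN on the counts, with genotype as a covariate. Of the 8 genes, 7 were called higher in liver and 0 were called lower. Calls required edgeR's quasi-likelihood test to give an adjusted p (Benjamini-Hochberg) under 0.05 with a log2 difference over 0.58. Among 19780 genes tested, 33.6% were called higher in liver and 32.6% lower. The log2 difference was largest for *Mlxipl* at 6.28 (SE 0.18, adjusted p = 1.38e-07) and *Acacb* at 6.06 (SE 0.16, adjusted p = 1.19e-07), and these 2 genes were at most 5.47 TPM in any brain library. It was 3.32 (SE 0.15, adjusted p = 9.17e-07) for *Elovl6*, 2.89 (SE 0.15, adjusted p = 1.83e-06) for *Fasn* and 2.28 (SE 0.14, adjusted p = 5.53e-06) for *Srebf1*. *Me1* at 1.73 (SE 0.23) and *Acaca* at 1.58 (SE 0.13) were the lowest of the 7. *Acly* was -0.90 (SE 0.49, edgeR adjusted p = 0.137; 7 genes passed at an unadjusted p under 0.05, not *Acly*). The SCD1 locus was 5.97 (SE 0.14) higher in liver and the SCD2 locus -6.39 (SE 0.18), with edgeR adjusted p of 1.07e-07 and 1.32e-07.

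The scaling between tissues decided 3 of these calls. The trimmed mean of M values (TMM) centred the median of all genes at 0.02, with 6644 genes called higher in liver and 6445 lower. Scaling by library size moved that median to -1.22 (3108 called higher, 11468 lower), and limma on log2(TPM + 1) moved it to -1.07 (2602 higher, 12606 lower). *Acaca* then stood at 0.34 and 0.02, *Me1* at 0.50 and 0.13, and neither was called. *Acly* was called lower in liver at -2.12 and -2.57. Relative to the median of all genes, *Acaca* and *Me1* were higher in liver under all 3 scalings. Without the *duper* liver set *Acly* was 0.10 (edgeR adjusted p = 0.498), and without the wild-type liver set it was -2.22 and called lower. It was called lower also without the wild-type SCN library (-1.32).

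**Figure D2:**
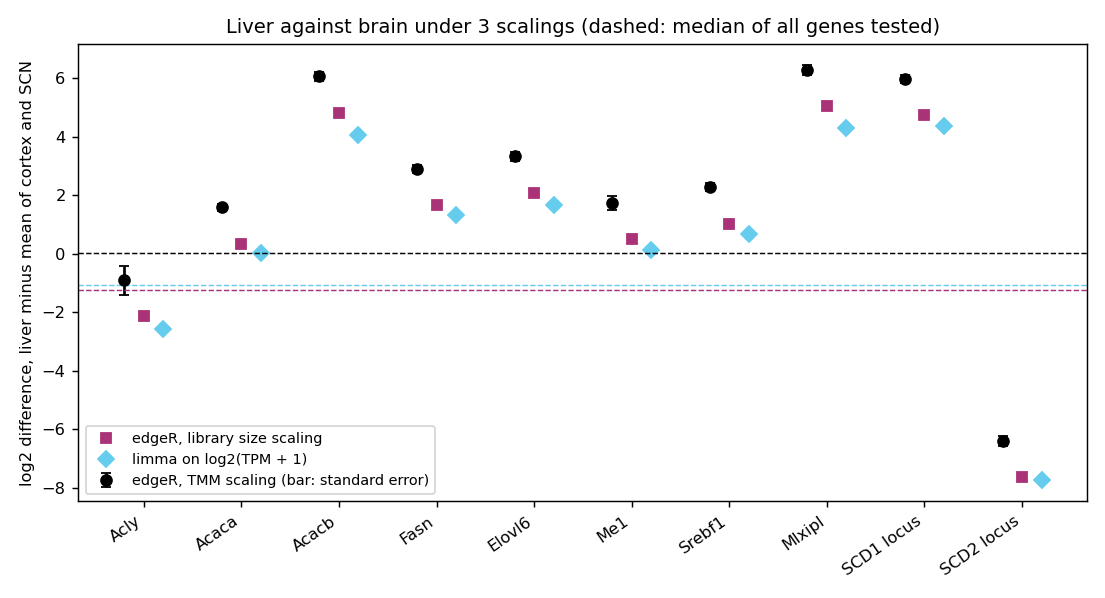
Log2 difference between liver and the mean of cortex and SCN for each gene under edgeR with TMM scaling (black, bar 1 standard error), edgeR with library size scaling and limma on log2(TPM + 1); dashed lines give the median of all genes tested under each. *Fasn*, *Acacb*, *Elovl6*, *Srebf1*, *Mlxipl* and the SCD1 locus lie above 0 under all 3, while *Acaca* and *Me1* come close to 0 under the other 2.

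Around the pathway, the balance between liver and brain depended on the scaling, and individual genes were far apart. Of 72 genes tested in 5 lists, 44 were called higher in liver and 14 lower with TMM, 30 and 30 with library size scaling, and 28 and 31 in limma on log2(TPM + 1). Over all 19780 genes the shares higher and lower were 33.6% and 32.6%, 15.7% and 58%, and 13.2% and 63.7%. The genes named here were called in the same direction under all 3 scalings, and the counts that follow are those with TMM. Of the 11 genes reported for acetyl-CoA and glycolytic supply, 11 were called, 7 higher in liver and 4 lower, with a median log2 difference of 2.31 against 0.02 over all genes. *Pklr*, the liver pyruvate kinase, *Khk* (5.23), which phosphorylates fructose, *Acss2* (4.29), which makes acetyl-CoA from acetate, and *Slc25a1* (3.89), the mitochondrial citrate carrier, differed most of these on the log2 scale. *Pklr* stood at 128 and 122 TPM in liver and at 0.12 to 0.72 TPM in brain. NADPH supply had 5 of 10 genes higher and 2 lower (median 0.70). The mitochondrial malic enzyme *Me3* was lower (-5.22), while *H6pd* (4.11), *Idh1* (3.90) and *Idh2* (2.96) were higher.

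Of 14 elongation and desaturation genes tested, 6 were higher and 3 lower in liver (median -0.03). With library size scaling 5 were higher and 9 lower. *Elovl7* (-5.03) and *Elovl4* were called lower, and *Fads6* (4.63) and *Elovl2* (4.27) higher. *Elovl4* was listed at 0 in both livers and at 36.5 to 54.3 TPM in brain. *Elovl4* acts on very long chains and *Elovl2* on polyunsaturated chains. Glycerolipid assembly had 14 of 19 genes higher and 3 lower (median 1.84), with *Dgat2* (6.16), which completes triglyceride, *Acsl1* (5.63) and *Agpat2* (5.42) higher. *Acsl6*, an acyl-CoA synthetase of brain, was called lower, at 0.0099 and 0.024 TPM in liver and 90.0 to 132 TPM in brain. Among 18 upstream and partner regulators 12 were higher and 2 lower (median 1.09). *Nr1h3*, the liver X receptor alpha, was higher by 5.05, *Insig1* and *Insig2*, which retain SREBP in the endoplasmic reticulum, by 3.87 and 2.92, and *Mlycd*, which degrades malonyl-CoA, by 2.999.

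Between the brain tissues, 1 of the 8 genes was called. *Mlxipl* was higher in SCN than in cortex by 1.53 on the log2 scale (SE 0.27, edgeR adjusted p = 0.0133). Over all genes 3.76% were called higher in SCN (743) and 6.8% lower (1346). Library size scaling gave 1426 higher and 1070 lower. The 7 genes not called lay between -0.26 (*Me1*) and 0.41 (*Acacb*), and *Fasn* was at 0.01 (SE 0.18). *Mlxipl* rested on 14 and 36 estimated counts in cortex and 301 and 62 in SCN, and lost the call without the wild-type cortex library (1.12, edgeR adjusted p = 0.149), without the wild-type SCN library (1.41, edgeR adjusted p = 0.0806) and in limma on log2(TPM + 1) (1.16, adjusted p = 0.0551). The SCD2 locus was 0.51 higher in SCN (SE 0.14, edgeR adjusted p = 0.0692), and with library size scaling it was called (0.68, edgeR adjusted p = 0.0306). Oligodendrocyte markers (5 of 8 with a row) summed to 1994 and 2592 TPM in wild-type and *duper* cortex and to 3941 and 3268 TPM in SCN. Their part in these values was not tested.

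Of the 72 genes in the lists around the pathway, 6 were called between SCN and cortex, beside 10.6% of all genes. With library size scaling 13 of the 72 were called, beside 12.6% of all genes. *Slc25a1* was higher in SCN by 0.98, the only 1 of the 11 supply genes reported that was called. In glycerolipid assembly *Agpat2* was higher (1.33) and *Dgat2* lower (-1.51), and among regulators *Nr1h3* was higher by 1.04 while *Thrb* (-1.94) and *Fbxw7* (-1.79) were lower. In NADPH supply and in elongation and desaturation 0 genes were called by edgeR, with 5 and 4 at an unadjusted p under 0.05, and by DESeq2 and limma also 0. Library size scaling called 3 NADPH genes and 1 elongation gene, all higher in SCN, and the likelihood ratio test called 1 elongation gene, lower in SCN.

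The study used these RNA data to compare *duper* with wild type, and the paper calls them a pilot. Fitted across the 3 tissues with tissue as a covariate, 0 of the 8 genes were called by edgeR, in a test that called 1 of 18275 genes (0.00547%). DESeq2, the tool of the study, called 41 of 21072 genes and limma 0 of 18275, and both called 0 of the 8. *Srebf1* had the largest positive value, 0.38 (SE 0.14), and no other gene of the 8 was at an unadjusted p under 0.05. The unadjusted edgeR p of *Srebf1* was 0.0304 and the adjusted p = 0.998. It was higher in *duper* in 3 of 3 tissues. These values enter the fit and come from the same hamsters, so they add no separate support. *Acly* had the largest negative value, -0.56 (SE 0.46, edgeR adjusted p = 0.998). The other 6 genes lay between -0.15 (*Me1*) and 0.12 (*Acaca*), each with an SE of 0.13 to 0.23, and the SCD1 and SCD2 loci were at 0.02 and 0.04. In the lists around the pathway edgeR called 0 of 72 genes, with 2 (*Mogat2* and *Acsl5*) at an unadjusted p under 0.05, and DESeq2 and limma also called 0.

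Within single tissues the values differed in sign. In liver, 7 of the 8 genes were lower in *duper*, and in cortex all 8 and in SCN 7 of 8 were higher. The median log2 ratio over all genes was -0.10 in liver, 0.02 in cortex and 0.02 in SCN. The share of all genes above or below 0 was not counted, so these counts have no background beside them. Within a tissue there is 1 set of values per genotype, so these differences have no replicate check and no p-value. Intervals given below are 95% counting intervals of the log2 ratio of TPM and cover counting error only.

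*Acly* was 5.04-fold lower in *duper* liver than in wild-type liver (55.7 and 11.1 TPM, from 9792 and 2422 estimated counts), a log2 ratio on the TPM + 1 scale of -2.23 (counting interval without the pseudocount -2.40 to -2.27). The 3 annotated *Acly* transcripts were all lower. Reads of a gene are divided among its transcripts in these values, so the 3 add no separate support. The 4330-base transcript stood at 25.2 and 6.73 TPM in wild-type and *duper* liver, the 4300-base transcript at 21.3 and 3.24 TPM, and the 4329-base transcript at 9.18 and 1.10 TPM. *Me1* was 2.08-fold lower (74.1 and 35.7 TPM), a log2 ratio of -1.03 (-1.10 to -1.01). Its 3160-base transcript, which carried 95.2% and 96.1% of the liver level, stood at 70.6 and 34.3 TPM.

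Carboxylation, synthesis and elongation genes were lower by less. *Acacb* was 1.52-fold lower (log2 ratio -0.59, -0.63 to -0.58) and *Elovl6* 1.51-fold lower (-0.58, -0.63 to -0.56). *Fasn* was at -0.28 (-0.29 to -0.26) and *Acaca* at -0.26 (-0.31 to -0.23), and the SCD1 locus at -0.35 (-0.37 to -0.33). Between the regulators the signs differed. *Mlxipl* was at -0.44 (-0.48 to -0.41), and *Srebf1*, alone among the 8 genes, was higher in *duper* liver, at 0.52 (0.49 to 0.56), from 57.8 to 83.2 TPM.

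With a fold of 0.58 on the log2 scale as the threshold, 4 of the 8 genes (*Acly*, *Me1*, *Acacb* and *Elovl6*) were lower past it in *duper* liver and 0 were higher. Over the 14054 genes whose mean in liver reached 1 TPM, 10.5% were lower past it (1477) and 4.75% higher (668). The median over the 8 genes was -0.51, and over all these genes -0.10. Rescaling TPM by TMM factors moved the median of all genes to 0.04, with 1176 lower and 1189 higher past the fold, and that of the 8 genes to -0.35. Then 2 genes (*Acly* at -2.11 and *Me1* at -0.88) were lower past the fold, *Acacb* (-0.43) and *Elovl6* (-0.42) were not, and *Srebf1* (0.69) was higher past it. The signs of all 8 genes were the same under both scalings.

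In *duper* cortex all 8 genes were higher, with 0 past the fold in either direction. There 8.24% of 18096 genes were higher past the fold and 7.75% lower. The values ran from 0.03 (*Acacb*) to 0.47 (*Mlxipl*, interval -0.18 to 1.75), with a median of 0.27 against 0.02 for all genes. *Acaca* was at 0.42 (0.29 to 0.58), *Me1* at 0.37 (0.20 to 0.55) and *Srebf1* at 0.32 (0.15 to 0.51). The summed oligodendrocyte markers were higher in *duper* cortex as well (1994 and 2592 TPM). So were those of neurons (5371 and 5575 TPM), astrocytes (1738 and 1935 TPM) and macrophages (183 and 201 TPM). The summed cortex markers were lower (1017 and 928 TPM). The part of these cell types in the values was not tested.

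SCN showed smaller values. Of the 8 genes 7 were higher in *duper*, and *Mlxipl* was at -0.14 (interval -0.59 to 0.23), with 0 past the fold. In SCN 6.67% of 18305 genes were higher past the fold and 7.7% lower. *Acly* had the largest value, 0.23 (0.17 to 0.29), and the median of 0.12 stood against 0.02 for all genes. For *Acaca*, *Acacb*, *Elovl6* and *Mlxipl* the counting interval in SCN included 0. The summed oligodendrocyte markers were lower in *duper* SCN (3941 and 3268 TPM), as were the 3 SCN markers (50.1 and 24.4 TPM). Summed markers of neurons (2019 and 2347 TPM), astrocytes (1342 and 1502 TPM) and macrophages (215 and 257 TPM) were higher. The part of these cell types in the values was not tested.

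**Figure D3:**
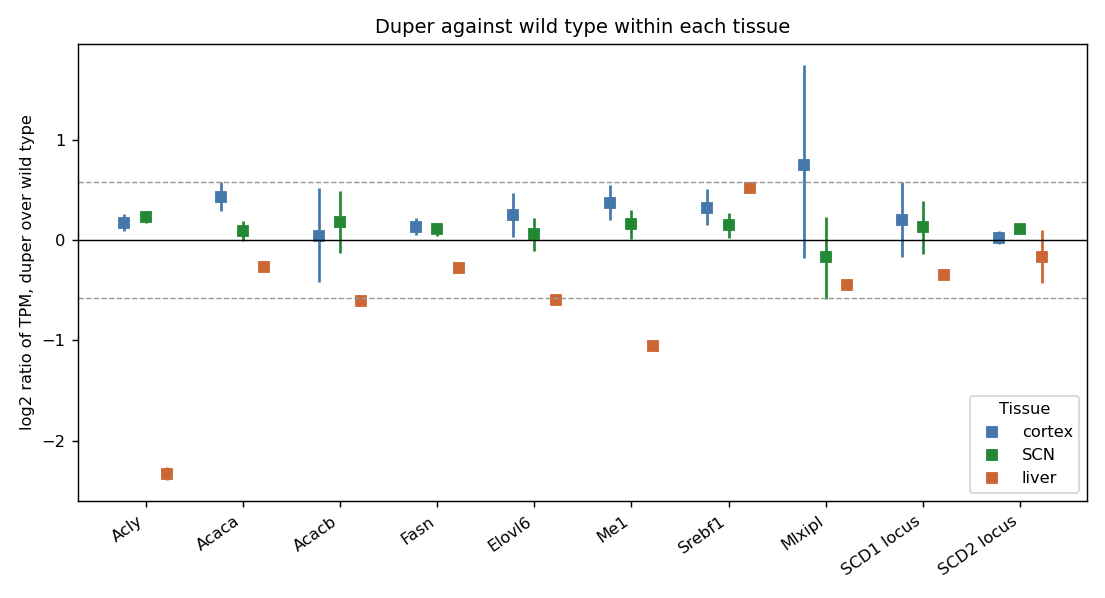
Log2 ratio of TPM, *duper* over wild type, for each gene in cortex, SCN and liver; bars are 95% counting intervals, which are narrower than the symbols for most liver values, and dashed lines mark 0.58 and -0.58. *Acly* and *Me1* stand lowest in liver, and *Srebf1* is above 0 in all 3 tissues; no pseudocount is added here, so *Mlxipl* in cortex, 1.68-fold higher on 14 and 36 estimated counts, lies above the dashed line.

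Whether the genotype difference in liver departed from that in brain was tested as a term in the edgeR model, a test added after the data were seen. Of the 8 genes, 2 were called. The *duper* effect in liver minus that in brain was -2.32 for *Acly* (SE 0.17, edgeR adjusted p = 4.41e-06) and -1.11 for *Me1* (SE 0.18, edgeR adjusted p = 0.00345), lower in liver for both. Over all 19780 genes 602 were called (3.04%), 351 higher and 251 lower. Library size scaling called 137 higher and 241 lower. *Elovl6* (-0.53), *Acacb* (-0.52) and *Srebf1* (0.51) were at an unadjusted p under 0.05 and not called, with edgeR adjusted p of 0.139, 0.224 and 0.150. *Acaca* (-0.31), *Mlxipl* (-0.25) and *Fasn* (-0.19) were not called (adjusted p from edgeR 0.448, 0.733 and 0.722). A gene's own spread in this test comes only from how far the genotype difference varied between cortex and SCN. edgeR moderates it with the spread of all genes, so these p-values lean on spread shared between genes. Liver is assumed to vary as brain did. In DESeq2 *Me1* was not called (-1.11, adjusted p = 0.0729), and limma on log2(TPM + 1) called 0 of 19780 genes (1165 at an unadjusted p under 0.05), with *Acly* at -2.43 and *Me1* at -1.30 (adjusted p = 0.798 for both).

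Other cell types moved in liver beside these values. Hepatocyte markers (8 of 8 with a row) summed to 133377 TPM (wild type) and 144419 TPM (*duper*). Macrophage markers (7 of 7) summed to 530 and 907 TPM, and their part in the liver values was not tested. Adipocytes also express this pathway. Their markers (5 of 6 with a row) summed to 94.9 and 59.2 TPM, of which *Cidec*, also made by hepatocytes that store fat, gave 90.8 and 58.0 TPM. *Plin1* stood at 3.39 and 0.71 TPM, and *Adipoq*, the defining adipocyte gene, at 0.018 and 0.033 TPM. The part of the adipocyte markers in the liver values was not tested.

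The supply and storage steps on either side of the pathway did not share one direction in *duper* liver. The 11 genes reported for acetyl-CoA and glycolytic supply lay between -0.48 and 0.31. *Pdha1*, a subunit of pyruvate dehydrogenase, was at -0.48, the mitochondrial pyruvate carrier genes *Mpc1* and *Mpc2* at -0.40 and -0.38, and *Acss2* at 0.31. Over all genes in liver 10.5% were lower past the fold and 4.75% higher, and the list counts that follow stand beside these shares. In NADPH supply 0 of 9 genes passed the fold, with a list median of 0.05. *Me1* (-1.03) is not counted in that list. In elongation and desaturation 3 of 12 genes were lower past it and 1 higher. *Elovl2* stood at 131 and 63.1 TPM, *Elovl5* at 189 and 108 TPM, *Hsd17b12*, the ketoacyl-CoA reductase of elongation, at 90.1 and 56.2 TPM, and *Fads3* at 5.54 and 12.0 TPM in wild-type and *duper* liver.

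Glycerolipid assembly had 2 of 19 genes higher past the fold and 3 lower. *Gpam*, the mitochondrial acyltransferase that opens glycerolipid synthesis, stood at 55.5 and 115 TPM in wild-type and *duper* liver, and *Acsl3*, which activates fatty acids, at 11.8 and 26.3 TPM. *Plin2*, which coats lipid droplets, stood at 107 and 61.3 TPM and *Mogat2* at 10.2 and 5.14 TPM. Of 18 regulators 1 passed the fold: *Prkaa2*, a catalytic subunit of the AMP-activated kinase that phosphorylates both acetyl-CoA carboxylases, at 16.9 and 7.21 TPM. List medians were -0.07, 0.05, -0.23, -0.02 and -0.08 for supply, NADPH, elongation and desaturation, assembly and regulators, against -0.10 for all genes. The edgeR test of liver against brain genotype effects called 7 of the 72 list genes, beside 3.04% of all genes. These were *Elovl2*, *Elovl5*, *Fads3*, *Gpam*, *Acsl3*, *Plin2* and *Prkaa2*. Of the genes named here as past the fold, *Hsd17b12* and *Mogat2* were not called in it. Of the 7, DESeq2 called *Gpam* and *Acsl3* in that test, and limma called 0.

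**Figure D4:**
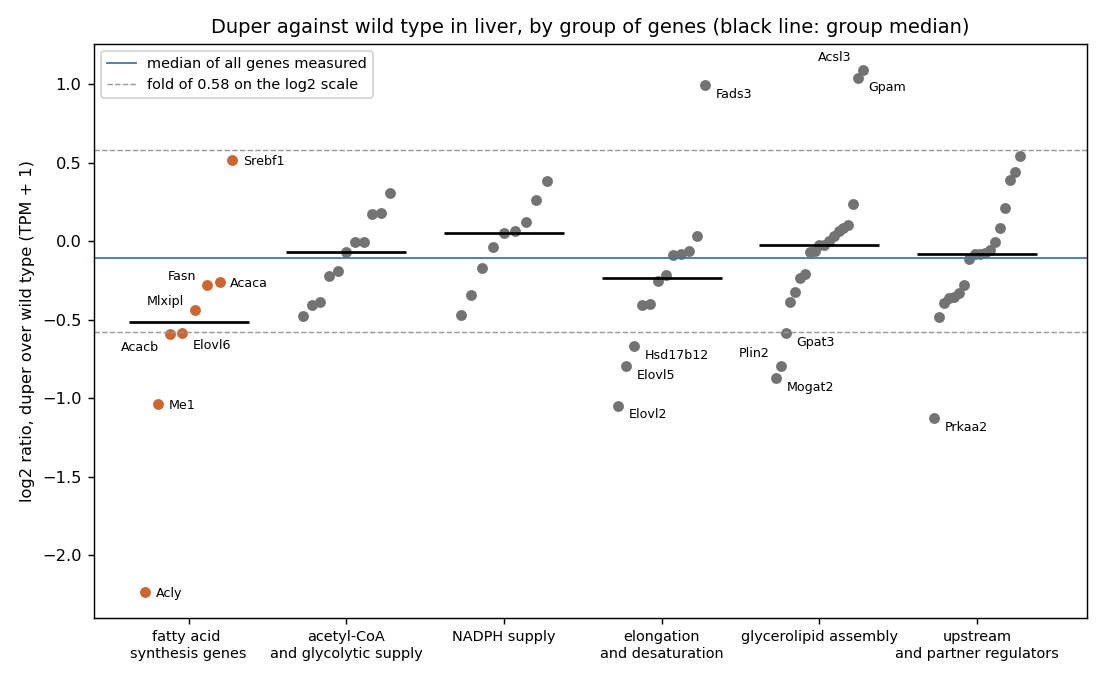
Log2 ratio of TPM + 1, *duper* over wild type, in liver for each fatty acid synthesis gene and each gene of the 5 surrounding lists whose mean reached 1 TPM; the black line is the median of a group, the blue line (-0.10) that of all genes measured, and dashed lines mark 0.58 and -0.58. *Acly* (-2.23) lies farthest from 0 of the genes shown.

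Most of the genes have several annotated transcripts, and the shares of a gene's TPM differed between tissues. *Fasn* and *Acacb* have 1 transcript each, *Me1* and *Srebf1* 2, *Acly* 3, *Acaca* and *Elovl6* 4 and *Mlxipl* 5. The 3837-base *Srebf1* transcript carried 68.8% and 60.3% of the *Srebf1* level in wild-type and *duper* cortex, then in SCN 77.7% and 73.3%, and in the livers 81.1% and 79.3%, and its share was lower in *duper* in each tissue. Both *Srebf1* transcripts were higher in *duper* liver, which adds no separate support to the value of the gene. The 3837-base form stood at 46.9 and 65.96 TPM and the 3851-base form at 10.9 and 17.2 TPM.

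In liver the 5904-base *Elovl6* transcript carried 89.5% and 90.5% of the gene's level. In brain its share was 0.078% in wild-type and 44.6% in *duper* cortex, and 42.5% and 0.038% in SCN, with the rest given to transcripts of 5869 and 5833 bases. Shares that far apart in libraries whose *Elovl6* level was close leave the brain split among these near-equal transcripts uncertain. *Acaca* in liver was carried by the 9147-base (67.1% and 56.5%) and 9054-base (32.4% and 43.5%) transcripts. The 9398-base and 9351-base transcripts, at most 0.50% in liver, held 4.14% to 25.4% and 11.8% to 19.6% in brain. The 9054-base transcript held 0.44% and 29.9% in wild-type and *duper* cortex, and 11.8% and 16.6% in SCN. The brain split of *Acaca* is therefore uncertain as well. *Mlxipl* in liver was spread alike in both genotypes, with 47.8% and 49.4% on the 3721-base, 27.7% and 28.2% on the 3719-base and 21.9% and 18.6% on the 3582-base transcript.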

How the data were processed

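Paired-end RNA sequencing (TruSeq stranded mRNA, HiSeq) was quantified by the authors with Kallisto against the MesAur2.0 hamster reference, and transcript values were summed to genes with tximport. The Kallisto version and any strand setting are not given in the sources used here. The deposited gene tables hold estimated counts, TPM and transcript lengths for 6 columns, and the deposited transcript files hold estimated counts and TPM for 67818 transcripts per library. Within a tolerance of 1%, 99.98% of gene values equalled the sum of their transcripts.

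Estimated counts were rounded and tested with edgeR 4.0.16 (TMM, filterByExpr, quasi-likelihood F test, R 4.3.3), called at an adjusted p under 0.05 and a log2 difference over 0.58. Genotype was fitted with tissue as covariate as in the study, which used DESeq2. Tissue was fitted with genotype as covariate. Within a tissue, log2 ratios of TPM + 1 were formed without a test, with Clopper-Pearson 95% counting intervals. Such intervals cover counting error only, because no spread between animals enters them, and PCR copies can make them too narrow even for that. Alternatives were DESeq2 1.42.0, limma 3.58.1 on log2(TPM + 1) and log2(TPM + 0.1), library size scaling, a likelihood ratio test, other count filters, a length offset, no covariate, and each library left out. Scripts were tested on simulated counts.

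The genes and lists were chosen with earlier results of these data known. All genes of the pathway set were named, and of each surrounding list at most 4 genes per comparison, those of largest absolute value. *Mogat2* and *Acsl5* in the genotype comparison were named after their values were seen. Genes of the supply list beyond the 11 counted are not reported here. The test of the liver against brain genotype effect and the SCD1 and SCD2 loci were added after seeing the data. No coordinates or sequences are printed, because no genome of the build was used here.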

Additional observations from a re-analysis of the deposited data

Results flagged for a closer look

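For 6 of the genes and both desaturase loci the *duper* difference in liver had the opposite sign to that in both brain tissues. How many of all genes share this pattern was not counted. The median over all genes was -0.10 in liver, 0.02 in cortex and 0.02 in SCN. The liver log2 ratio was -2.23 for *Acly*, against 0.17 in cortex and 0.23 in SCN, and -1.03 for *Me1*, against 0.37 and 0.15. For these 2 genes the difference between liver and brain was called in edgeR (adjusted p = 4.41e-06 and 0.00345). The spread in that test comes from the brain libraries alone and is shared between genes.

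For the rest the same test did not call a difference. The counting intervals of *Acacb* and the SCD1 locus included 0 in both brain tissues. Those of *Acaca* and *Elovl6* included 0 in SCN, and that of the SCD2 locus in cortex. *Acacb* was -0.59 in liver (0.03 in cortex, 0.14 in SCN), *Elovl6* -0.58 (0.23, 0.06), *Fasn* -0.28 (0.13, 0.11) and *Acaca* -0.26 (0.42, 0.09), with edgeR adjusted p of 0.224, 0.139, 0.722 and 0.448. The SCD1 locus (LOC101834849) was -0.35 in liver (0.19 in cortex, 0.13 in SCN; edgeR adjusted p = 0.5001), and the SCD2 locus (LOC101835362) was -0.14 (0.03, 0.11; edgeR adjusted p = 1). The SCD2 counting interval in liver was -0.43 to 0.10, and under TMM-normalized CPM its liver ratio was 0.018, so its sign was not stable. No group held the 4 samples that a check for a sample far from the others needs.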

How the results depend on the processing

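Each tissue had 1 set of values per genotype, so within-tissue values have no replicate error, and *Mlxipl* and *Acacb* in brain rest on 14 to 416 estimated counts. Single hamsters could not be matched between tissues, because each set of values joins 4 of them. The tissue comparisons carry genotype as a covariate, which matches the sets that came from the same 4 hamsters. In the comparison of *duper* with wild type the 3 sets of a genotype come from the same 4 hamsters and act as its replicates. The test of the liver against brain genotype effect could not be fitted with a library left out or without its covariate.

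The number of genes called for *duper* against wild type (1) was 41 in DESeq2, 48 without a count filter, 91 in the likelihood ratio test, 0 in limma on log2(TPM + 1) and on log2(TPM + 0.1), 0 without a tissue term, and 0 to 42 with 1 library left out (0 without either cortex library, 35 without wild-type SCN, 42 without *duper* SCN, 20 without wild-type liver and 21 without *duper* liver). In all of these 0 of the 8 genes were called. Genes called lower in liver than brain among the 8 (0) were 1 (*Acly*) under library size scaling and under both limma settings, and 0 to 1 with 1 library left out. For SCN against cortex, 2089 calls became 3393 in the likelihood ratio test, 816 in limma on log2(TPM + 0.1) and 356 to 3613 with 1 library left out (356 and 524 without wild-type and *duper* cortex, 737 without wild-type SCN, 3613 and 3558 without wild-type and *duper* liver), and the 1 member called became 0 in both limma settings and 0 to 1 with 1 library left out. For the liver against brain genotype effect, 602 calls became 193 in DESeq2, 378 under library size scaling, 1378 in the likelihood ratio test and 0 in both limma settings, and the 2 members called became 1 in DESeq2 and 0 in both limma settings. Within cortex 1 member (*Mlxipl*) was higher past the fold with a pseudocount of 0.1, and within liver 1 was higher and 2 were lower past it under TMM-normalized CPM and under TPM rescaled by TMM factors.

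Signs changed only for values not called. For *duper* against wild type, *Fasn* was -0.025 under library size scaling, -0.012 in both limma settings and -0.053 without a tissue term, the SCD1 locus -0.048, -0.0095 and -0.0072 in limma, and -0.16, the SCD2 locus -0.0066 under library size scaling and -0.0017 and -0.0088 in limma, and *Mlxipl* 0.032 in limma on log2(TPM + 0.1). With 1 library left out, *duper* against wild type ranged from -0.0074 to 0.097 for *Fasn*, -0.012 to 0.23 for *Acaca*, -0.25 to 0.11 for *Acacb*, -1.01 to 0.18 for *Acly*, -0.20 to 0.12 for *Elovl6*, -0.38 to 0.24 for *Me1*, -0.25 to 0.0019 for *Mlxipl* and -0.044 to 0.14 for the SCD1 locus. Liver against brain ranged from -2.22 to 0.10 for *Acly*, and SCN against cortex from -0.053 to 0.060 for *Fasn*, -0.55 to 0.83 for *Acly*, -0.11 to 0.30 for *Elovl6* and -0.60 to 0.14 for *Me1*. The cause of these changes was not tested.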
